A study of Rattus norvegicus with 48 samples.

Results

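Of the 13574 genes with a mean of at least 1 CPM (a gene's estimated count scaled by the library total) in rat fat, 70 were higher in the late than in the early active phase by at least 1.5-fold in each of 4 comparisons: subcutaneous fat of sedentary rats, subcutaneous fat of exercised rats, visceral fat of sedentary rats and visceral fat of exercised rats. The difference was taken between group means of log2(CPM + 0.5). Of 4 genes that were set aside by name in the choice, 2 had passed these thresholds. The opposite choice, genes lower late by the same fold in all 4 comparisons, held 105 genes. The members were thus chosen by their late minus early differences, which are given below as a description and are not tested.

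RNA was sequenced from the subcutaneous fat (SAT) and the visceral fat (VAT) of 24 male adolescent rats. Early groups belonged to zeitgeber time 13 and late groups to zeitgeber time 23, in hours after lights on, and rats were either sedentary controls or exercised. The 4 groups, each of 6 rats with both depots sequenced, are called early control and late control (EAC, LAC), early exercise and late exercise (EAE, LAE). Collection was on postnatal day 61, which in the exercised groups was 24 h past their final session. No strain, genotype or kind of exercise is stated in the labels used here, and early and late rats differ both in the hour of tissue collection and, where exercised, in the hour of training, so these cannot be told apart in the exercised rats.

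Rats are nocturnal and feed and move mainly in the dark, so the early and late active phases lie near the start and the end of the night. Fat, like most tissues, holds a cell-autonomous circadian clock, a loop of transcription factors that switch their own repressors on and are switched off by them in turn. Feeding, glucocorticoid rhythm, body temperature and sympathetic input also impose a daily rhythm on adipose transcripts, and clock output includes many genes of lipid and glucose handling.

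The table names genes by Ensembl identifier only, and none of the identifiers could be paired with a symbol. Members are therefore called by rank, from member 1 to member 70, in falling order of the smallest of their 4 late minus early differences. Member 1 is ENSRNOG00000029262 and member 2 is ENSRNOG00000017716. What the genes encode, the gene lists meant for them and the defining markers of the tissue were not analysed here.

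Libraries held 13163675 to 17890033 estimated counts, so 1 count in the smallest library equals 0.076 CPM and 0 counts there allow up to 0.228 CPM (3 counts of the total, counting error only). From earlier results of these data 4 libraries were known to stand apart. Late exercise replicates 4 and 6 of SAT had median Spearman correlations of 0.803 and 0.814 with the other libraries of their depot, where 22 others had 0.951 to 0.976. Early control replicate 5 and early exercise replicate 3 of VAT had 0.947 and 0.940, where 22 others had 0.976 to 0.984. In the late exercise SAT group, one of replicates 4 and 6 was the lowest of the 6 libraries for 39 members and the highest for 21. Values without these 4 libraries are given beside the results they move most.

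As a set, the members took more than 2-fold larger shares of all counts late than early in both depots. In SAT they held 0.146% ± 0.00685 (SD, n = 6) in early control, 0.143% ± 0.0106 (n = 6) in early exercise, 0.341% ± 0.0191 (n = 6) in late control and 0.321% ± 0.0189 (n = 6) in late exercise rats. In VAT the shares were 0.146% ± 0.0152, 0.143% ± 0.0221, 0.313% ± 0.0170 and 0.313% ± 0.0102 in the same order (SD, n = 6 each). The median member, centred on its own mean over 48 libraries, lay between -0.79 and -0.26 on the log2 scale in the 24 early libraries and between 0.23 and 0.86 in the 24 late ones. The lowest late values were those of late exercise SAT replicates 4 and 6. The tissue was sequenced in bulk, so a gene used by more cells of one type and more RNA per cell cannot be told apart.

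The median late minus early difference of the members was 1.15 in SAT of sedentary rats, 1.05 in SAT of exercised rats, 1.17 in VAT of sedentary rats and 1.17 in VAT of exercised rats, all on the log2 scale. Over the 13574 genes the medians were 0.02, 0.03, -0.01 and -0.08. More than 2-fold differences were seen for 40, 37, 45 and 46 members in that order, 23 members exceeded 2-fold in all 4 comparisons, and 2 exceeded 4-fold in all 4. Without the 4 libraries that stand apart, the median in SAT of exercised rats was 1.26, against 1.15 in SAT of sedentary rats and 1.20 in both VAT comparisons. SAT of exercised rats gave the smallest of the 4 differences for 29 members, and for 20 without those libraries. At the threshold, the last 3 members had smallest differences of 0.60, 0.59 and 0.59, and the nearest 3 genes left out had 0.57, 0.57 and 0.56.

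**Figure D1:**
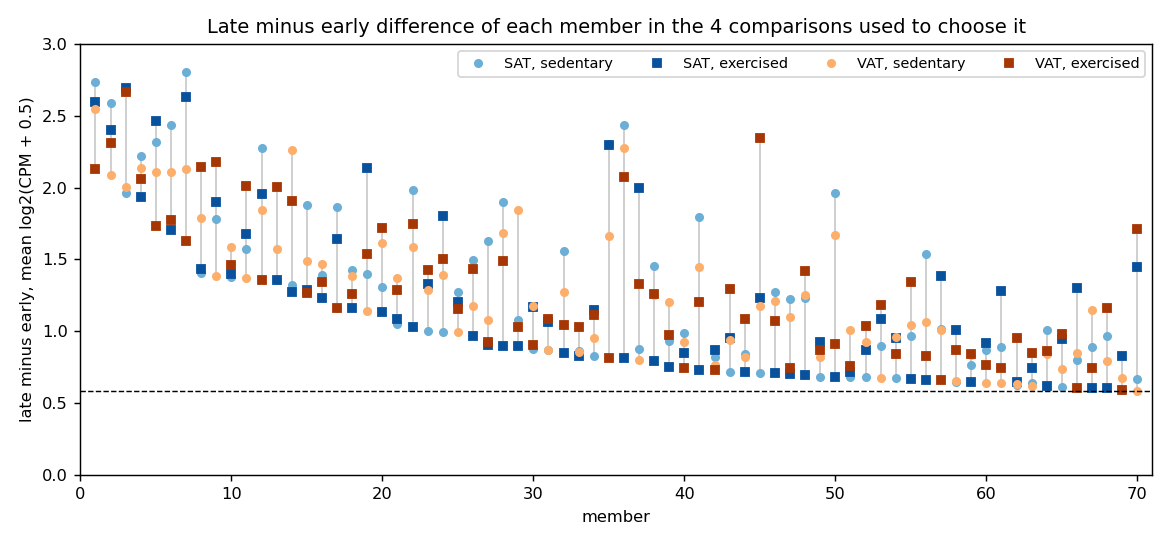
Late minus early difference (vertical axis, mean log2(CPM + 0.5)) of each of the 70 members (horizontal axis, by rank) in the 4 comparisons that chose them; the dashed line is the 1.5-fold threshold and grey bars join the 4 values of a member. The spread between comparisons was over 1 on the log2 scale for 8 members and had a median of 0.58.

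Separation of the single rats varied among the members. All 6 late libraries lay above all 6 early ones for 45 members in SAT of sedentary rats, 29 in SAT of exercised rats, 48 in VAT of sedentary rats and 49 in VAT of exercised rats. Of all 13574 genes, 3.77%, 1.28%, 2.37% and 2.78% did so. Since the same contrast chose the members, nothing is read from that gap. Without the 4 libraries that stand apart, which leaves fewer libraries to separate, the counts were 45, 48, 53 and 55 members, and 3.77%, 2.75%, 3.82% and 4.85% of all genes. Separation in all 4 comparisons was found for 20 members, in 3 for 19, in 2 for 12, in 1 for 10 and in none for 9. The share of all genes was not computed for this joint count, so it describes the members only.

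Member 4 was separated in every comparison. In SAT its lowest, median and highest levels were 6.75, 7.74 and 8.44 CPM in early control rats and 31.9, 36.1 and 45.4 CPM in late control rats. In SAT of exercised rats they were 4.07, 6.89 and 8.2 CPM early and 13.8, 26 and 41.7 CPM late. The late exercise group was the widest of these, and its lowest levels, 13.8 and 20.4 CPM, came from the replicates 4 and 6 that stand apart. In VAT member 4 ran at 5.69, 8.57 and 11.9 CPM in early control, 6.05, 8.91 and 11.8 CPM in early exercise, 35, 41 and 43.6 CPM in late control and 34.7, 36.8 and 45.4 CPM in late exercise rats. Early and late rats thus formed separate ranges in both depots, with no library between 11.9 and 13.8 CPM.

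Member 2, ENSRNOG00000017716, was separated in all comparisons but SAT of exercised rats. Its medians there were 4.01 CPM early and 23.5 CPM late, and the late library at 6.77 CPM, replicate 4, lay under the highest early one at 8.63 CPM. In SAT of control rats it ran from 1.89 to 7.24 CPM early and from 15.4 to 33.6 CPM late. In VAT of control rats the ranges were 3.24 to 16 CPM early and 24.3 to 41.8 CPM late, and in VAT of exercised rats 4.29 to 12.3 and 25.3 to 41.6 CPM. Its late minus early differences were 2.59, 2.40, 2.09 and 2.31, given as SAT of sedentary, SAT of exercised, VAT of sedentary and VAT of exercised rats, the order kept for the differences below.

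Members 6 and 9 were also separated in all 4 comparisons. Member 6 had medians of 5.74 and 32.6 CPM in SAT of control rats, early and late, and of 3.8 and 16.2 CPM in VAT of control rats. Member 9 had medians of 10.2 and 35 CPM in SAT and of 10.8 and 26.4 CPM in VAT of the same rats. The differences of member 6 were larger in sedentary rats (2.43 and 2.11) than in exercised ones (1.71 and 1.77), and those of member 9 were larger in exercised rats (1.90 and 2.18) than in sedentary ones (1.78 and 1.38). Whether these sizes differ by activity was not tested, because the phase contrast chose the genes. For both members the lowest late exercise SAT libraries were replicates 4 and 6, which stand apart. They were at 9.00 and 17.4 CPM for member 6 and at 17.5 and 20 CPM for member 9.

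Among the other leading members, member 7 had the largest single difference, 2.81 in SAT of sedentary rats, where its range was 3.15 to 10.4 CPM early and 29.4 to 83.1 CPM late. That was its one separated comparison: in VAT of exercised rats its late range of 8.2 to 35.3 CPM overlapped the early range of 2.81 to 9.73 CPM. Members 8, 10, 11 and 12 were low, at mean levels of 2.29, 1.44, 2.46 and 1.9 CPM. Members 10 and 12 were still separated in all 4 comparisons; in SAT of control rats member 10 ran at 0.184 to 0.962 CPM early and 1.47 to 2.66 CPM late, and member 12 at 0.184 to 0.898 and 2.6 to 6.93 CPM. Member 8 was separated in 2 comparisons and member 11 in 3.

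Levels in CPM are not per length, so they do not rank genes by transcript number. The 5 members with the highest mean CPM were members 26, 40, 66, 15 and 49, at 411, 207, 181, 119 and 103 CPM. Over all members the mean level ran from 1.32 to 411 CPM with a median of 12.4 CPM, against 20.8 CPM for all genes considered. Of the 70, 38 were at 10 CPM or more, 9 were under 2 CPM, and 13 had at least 1 library with 0 counts. Member 49 was narrow within groups: in SAT it ran at 67.1 to 87.1 CPM in early control, 64.1 to 77.3 in early exercise, 106 to 128 in late control and 121 to 152 in late exercise rats. Member 40 was separated in all 4 comparisons too, with SAT medians of 164 and 309 CPM in early and late control rats.

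Member 26 was separated in 3 comparisons and overlapped in SAT of exercised rats. Its late exercise SAT levels were 754, 727, 591, 113, 682 and 183 CPM in replicates 1 to 6, against 130 to 284 CPM in early exercise. The levels 113 and 183 CPM belong to replicates 4 and 6, and the other 4 late libraries lay above every early one. Member 66 moved the other way in those replicates, at 483 and 572 CPM where the other 4 were at 168 to 279 CPM.

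**Figure D2:**
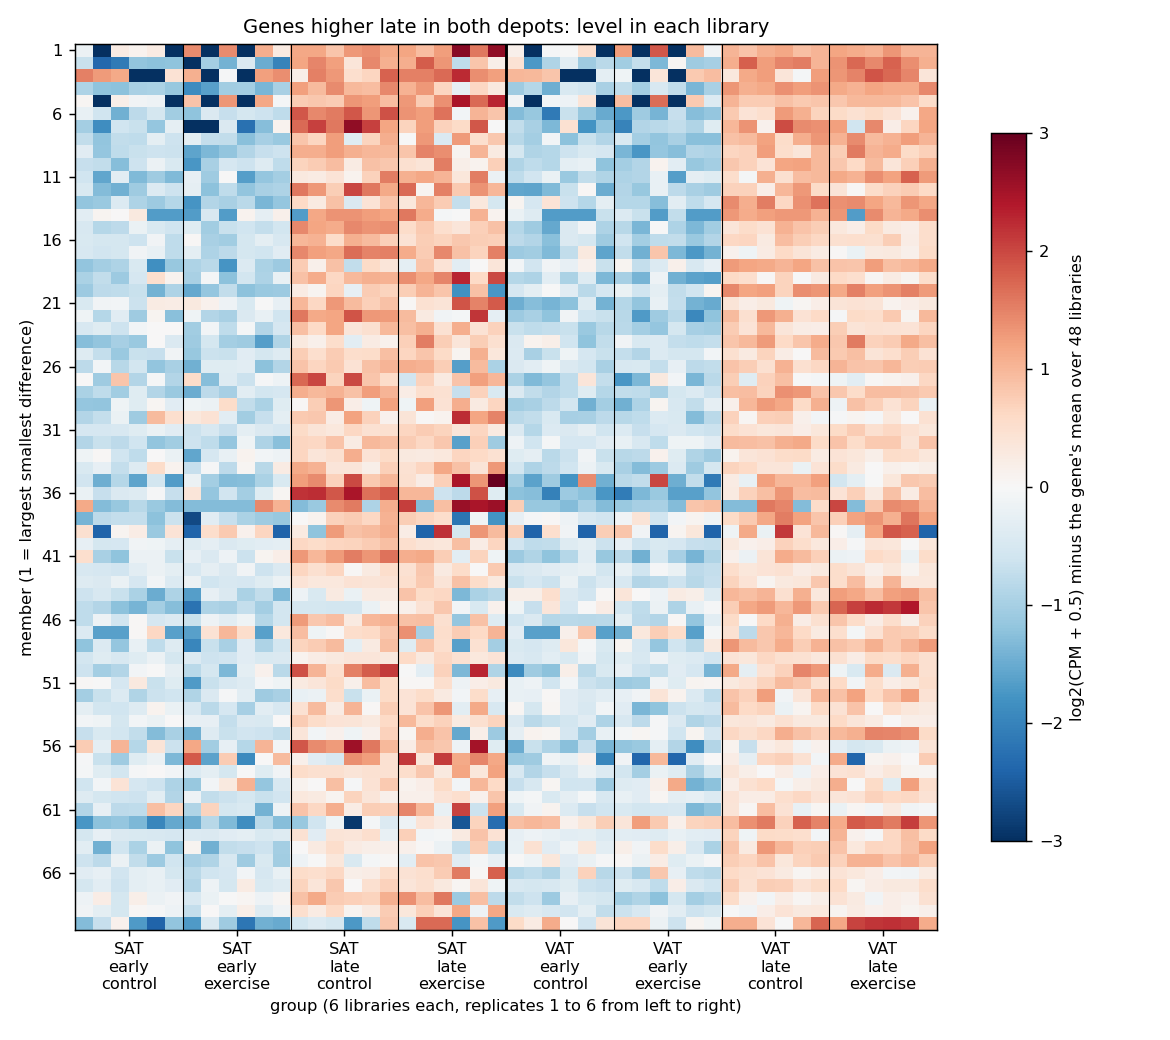
Level of each of the 70 members (rows, by rank) in each of the 48 libraries (columns, 6 per group, replicates in order), as log2(CPM + 0.5) minus the member's mean over all libraries, with colours capped at both ends of the scale. Early groups are blue and late groups red for most members. Dark blue cells in the early groups include those of members 1, 3 and 5 in the rats near 0, and some of other members, such as members 2 and 7.

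Some of the leading members were near 0 in a few early rats, which enter the means of logs that chose them. Member 1, ENSRNOG00000029262, was at 13.9, 0, 18.8, 16.8, 18.7 and 0.065 CPM in SAT of early control replicates 1 to 6. In VAT of the same 6 rats it was at 17.4, 0, 15.3, 15.6, 22.3 and 0.056 CPM. Replicates 2 and 6 were thus near 0 in both depots and the other 4 were not. In early exercise rats it was at 42.9, 0, 42.4, 0.256, 33.8 and 19 CPM in SAT, while VAT held 38, 0, 58.5, 0, 30.8 and 14.5 CPM, with replicates 2 and 4 near 0. Late rats had no such level: SAT ran from 28.3 to 41.9 CPM in control and from 30 to 107 CPM in exercised rats, and VAT from 28.7 to 35.4 and from 32.1 to 39.8 CPM. The 2 highest late levels, 107 and 102 CPM, were those of SAT replicates 4 and 6.

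Member 5 was near 0 in both depots of the same 4 rats, early control 2 and 6 and early exercise 2 and 4. Its SAT levels were 8.44, 0.063, 9.15, 7.42, 7.18 and 0 CPM in early control and 15, 0, 21, 0, 18.5 and 7.79 CPM in early exercise rats. Late SAT levels ran from 14 to 20.9 CPM in control and from 14 to 46.5 CPM in exercised rats, and late VAT levels from 13.9 to 16.9 and from 12.1 to 16.5 CPM. By group medians in place of means, the late minus early differences of member 1 were 1.19, 0.74, 1.05 and 0.66, against 2.73, 2.59, 2.55 and 2.13 by means of logs. Member 1 was thus still past 1.5-fold in all 4 comparisons by medians, at a smaller size. These medians still include the rats near 0. In the other early exercise rats, 19 to 42.9 CPM in SAT and 14.5 to 58.5 CPM in VAT overlapped the late levels. Other early control rats, at 13.9 to 18.8 CPM in SAT and 15.3 to 22.3 CPM in VAT, lay below all late control levels. Without the rats near 0, member 5 likewise overlapped in exercised but not in control rats.

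Member 3 was near 0 in a different set of 4 early rats. In SAT it was at 49.2, 41.9, 38.2, 0, 0 and 23.1 CPM in early control and at 36.3, 0, 16.6, 0, 40.5 and 45.5 CPM in early exercise replicates 1 to 6. The same rats were near 0 in VAT, at 34.4, 34, 30.4, 0, 0 and 13.9 CPM and at 15.4, 0, 21.8, 0.26, 29.4 and 32.8 CPM. Early exercise rats 2 and 4 were therefore near 0 for members 1, 3 and 5, and early control rats 4 and 5 for member 3 alone. Late rats had 19.1 to 82.3 CPM in SAT, and their VAT had 16.3 to 64.2 CPM. The remaining early rats, at 13.9 to 49.2 CPM over both depots, overlapped the late ones, and by group medians the differences were 0.18, 0.99, 0.48 and 1.36, so that member 3 did not reach 1.5-fold in sedentary rats.

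Levels under 1 CPM in both depots of one rat were uncommon among genes at this level. Of the 9249 genes with a mean of at least 10 CPM, 46 (0.497%) had such a rat: 5 in early rats alone, 2 in late rats alone and 39 in both phases. Members 1, 3 and 5 were 3 of the 38 members at 10 CPM or more and 3 of the 5 genes with early rats alone, a direction that the choice of members favours. Members 1 and 5 were low in the same 4 rats, so they are not separate cases. Members 37 and 47, at mean levels of 1.42 and 1.32 CPM, were low in both depots of 13 rats (9 early, 4 late) and 8 rats (6 early, 2 late). Neither was separated in any comparison.

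Member 63 was split between rats on the late side. All 24 early libraries lay within 63.8 to 83.3 CPM. In late control rats SAT was at 127, 72.8, 121, 120, 132 and 80 CPM and VAT at 147, 84.4, 137, 136, 132 and 88.1 CPM in replicates 1 to 6. In late exercise rats SAT was at 152, 87.6, 88.6, 112, 169 and 126 CPM and VAT at 187, 101, 89.7, 143, 174 and 137 CPM. Late control rats 2 and 6 and late exercise rats 2 and 3 were at 72.8 to 101 CPM in both depots, close to the early range, and the other 8 late rats were at 112 to 187 CPM.

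**Figure D3:**
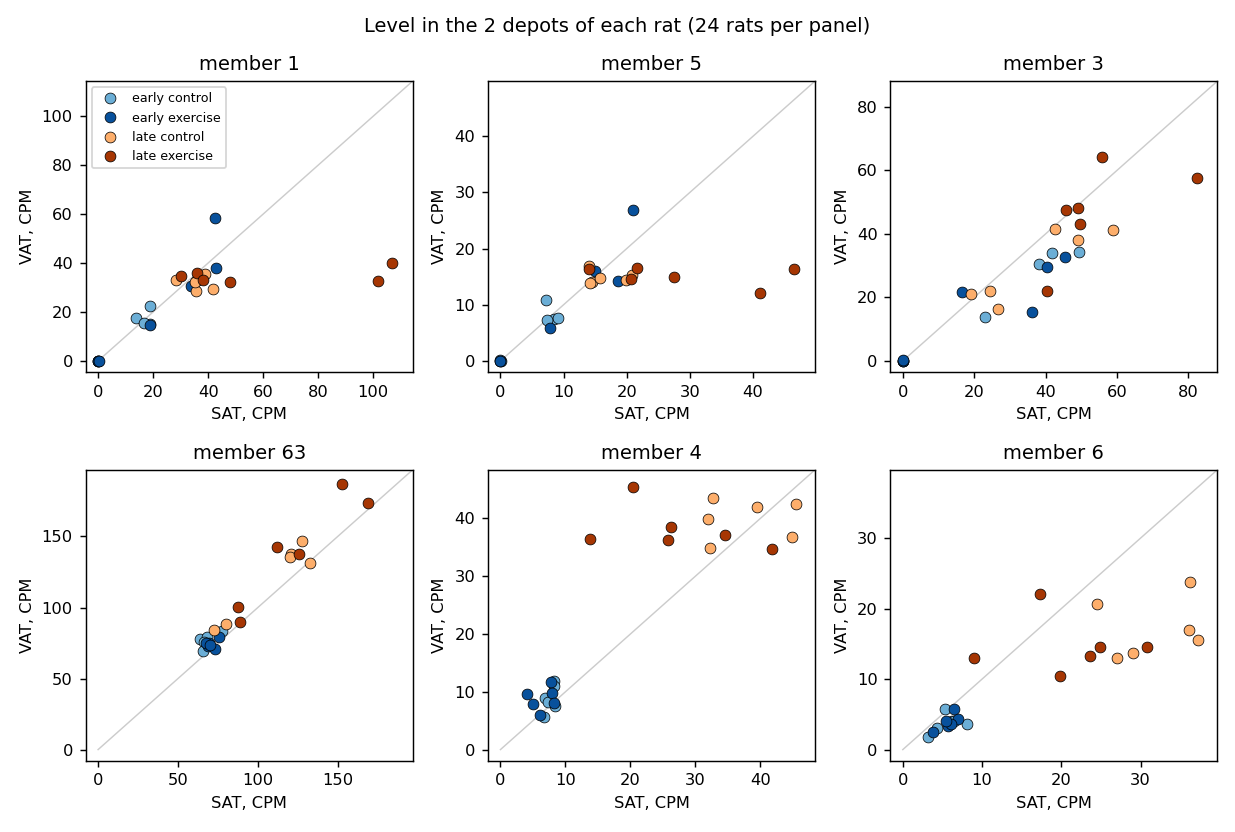
CPM in SAT (horizontal axis) and in VAT (vertical axis) of each of 24 rats for members 1, 5, 3, 63, 4 and 6, coloured by group, with the line of equal level. Members 1, 5 and 3 have 4 early rats near 0 in both depots, member 63 has 4 late rats near the early ones, and for members 4 and 6 early and late rats form separate clouds.

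Differences between rats of one group were measured as deviations of log2(CPM + 0.5) from the group mean. These are not independent of the choice of members: the rule asks for a difference in both depots of the same 24 rats and sets no limit on spread, so genes that vary between rats alike in both depots can enter through a few rats, as members 1, 3 and 5 show. The members also have a lower median level than all genes. The values are therefore a description, and nothing is read from their distance to those of all genes. Within groups the median SD of the members was 0.48 in SAT and 0.35 in VAT on the log2 scale, against 0.30 and 0.21 for all 13574 genes. Without the 4 libraries that stand apart the values were 0.40 and 0.31 against 0.23 and 0.19. The correlation of a rat's deviation in SAT with that in VAT, over 24 rats that share no library, had a median of 0.26 over members and 0.15 over all genes, and of 0.38 and 0.19 over the 20 rats without a library that stands apart. It was over 0.5 for 18 members (25.7%) and 698 genes (5.14%), over 0.8 for 7 members and 33 genes, and below 0 for 15 members and 3340 genes. Genes are not independent replicates, and no test of these counts was made.

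Of the 7 members over 0.8, members 1, 3, 5, 37, 47 and 63 have rats in separate clusters, and no correlation is given for them. Nor is one given for member 57, which was under 1 CPM in both depots of early control rat 6 and early exercise rats 2 and 4, rats that were also near 0 for members 1 and 5. Member 52 varied gradually: its SAT levels in late control replicates 1 to 6 were 25.4, 26.1, 42.8, 18.6, 26 and 44.5 CPM and its VAT levels 54.4, 48.7, 71.4, 27.5, 38.2 and 59.5 CPM. The rats with the highest SAT levels, replicates 3 and 6, also had the highest in VAT, and replicate 4 was the lowest in both. Its deviations in the depots had Pearson's r of 0.83 and Spearman's rho of 0.82 (n = 24 rats), with r of 0.81 without the 2 rats farthest from the median. Members 59, 51 and 65 followed, with r of 0.78, 0.72 and 0.67 and rho of 0.71, 0.66 and 0.68. Without the 2 farthest rats r was 0.62, 0.62 and 0.70. These 4 were chosen for the height of the correlation, so no test is given.

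Within groups, the median correlation between pairs of members was 0.04 in SAT and 0.05 in VAT, against 0.07 and 0.20 for pairs of all genes, over the 24 rats of a depot. Without the libraries that stand apart it was 0.03 and 0.06, against 0.05 and 0.17. The members have a lower median level than all genes, so nothing is read from this distance either, and it was not tested.

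Exercise was compared with sedentary control within each phase and depot by edgeR's quasi-likelihood test with Benjamini-Hochberg adjustment over all genes tested, 14372 in SAT and 13883 in VAT. All 70 members were tested. These contrasts were not the criterion of the choice, but the group means in them also entered the rule. A gene much lower in late exercise could fail the exercised comparison and be left out. The within-phase counts are therefore limited by the choice, and nothing is read from their distance to the shares of all genes. Only the mean over both phases, also tested, is orthogonal to the late minus early differences. In late SAT 2 of 70 members passed, both lower after exercise, where 11.5% of all genes passed (7.83% higher and 3.67% lower). In early SAT, early VAT and late VAT, and in the mean over both phases of either depot, 0 members passed, and the share of all genes was 0% in each. At an unadjusted p under 0.05 there were 11 members in late SAT, where 30.7% of all genes lay, and 1, 6, 7, 3 and 3 members in early SAT, early VAT, late VAT, mean SAT and mean VAT, where 0.911%, 2.49%, 11.2%, 16.3% and 5.65% of all genes lay. The DESeq2 Wald test called 6 members and 18.9% of genes in late SAT. In the other 5 it called 0, 0, 1, 1 and 0 members, and 0.0209%, 0%, 0.272%, 2.1% and 0.00729% of the genes it gave an adjusted p.

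Member 15 was lower in SAT of late exercise than of late control rats. Its lowest, median and highest levels were 220, 263 and 274 CPM in late control and 130, 158 and 186 CPM in late exercise rats, with means of 254 ± 23.7 and 158 ± 21.1 CPM (SD, n = 6 each). The groups did not overlap. The log2 difference was -0.65 ± 0.123 (SE), with an edgeR adjusted p of 0.01095, and it was -0.56 with an edgeR adjusted p of 0.0289 without the SAT libraries that stand apart. In a fit of only these 12 libraries the edgeR adjusted p was 0.119. In early rats, control SAT had a mean of 69 ± 11.9 CPM and exercised SAT of 64.7 ± 9.87 CPM (SD, n = 6 each). In VAT the late groups overlapped, at 130 to 207 CPM in control and 116 to 150 CPM in exercised rats, and the difference of -0.25 had an edgeR adjusted p of 0.609. Whether the depots or phases differ in this response was not tested.

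Member 28 was the second. It was at 91.2, 101 and 118 CPM (lowest, median, highest) in late control and 30.2, 63.2 and 79.3 CPM in late exercise SAT, again without overlap, and the log2 difference was -0.78 ± 0.225 (SE) with an edgeR adjusted p of 0.0341. Replicates 4 and 6 were the lowest, at 30.2 and 36 CPM. Without these libraries the difference was -0.45 with an edgeR adjusted p of 0.120, so that the call was lost, although the other 4 libraries, at 58 to 79.3 CPM, also lay below the control range. In VAT the difference was -0.12 with an edgeR adjusted p of 0.762.

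The next members by p in late SAT did not pass. Member 36 was at 11.3 to 20 CPM in late control and 1.69 to 13.7 CPM in late exercise rats, a log2 difference of -1.32 with an edgeR adjusted p of 0.0502, and of -0.89 with 0.201 without replicates 4 and 6. Member 66 was at 186 to 252 and 168 to 572 CPM, a difference of 0.53 with an edgeR adjusted p of 0.0536, and of 0.13 with 0.5854 without replicates 4 and 6. Member 58 was at 38 to 42.9 and 35.8 to 67.7 CPM, a difference of 0.32 with an edgeR adjusted p of 0.0695, and of 0.15 with 0.447 without these replicates. For members 66 and 58 the 2 highest late exercise libraries were again replicates 4 and 6.

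In late VAT the lowest p was that of member 45, at 3.36 to 5.22 CPM in control and 3.62 to 11.7 CPM in exercised rats, a log2 difference of 1.08 ± 0.274 (SE) with an edgeR adjusted p of 0.234. Member 70 followed, at 5.44 to 19.7 and 12.4 to 27.2 CPM, a difference of 0.97 with an edgeR adjusted p of 0.299. The median difference of the members was 0.06 in late SAT and 0.05 in late VAT, against 0.03 and -0.00 for all genes tested.

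**Figure D4:**
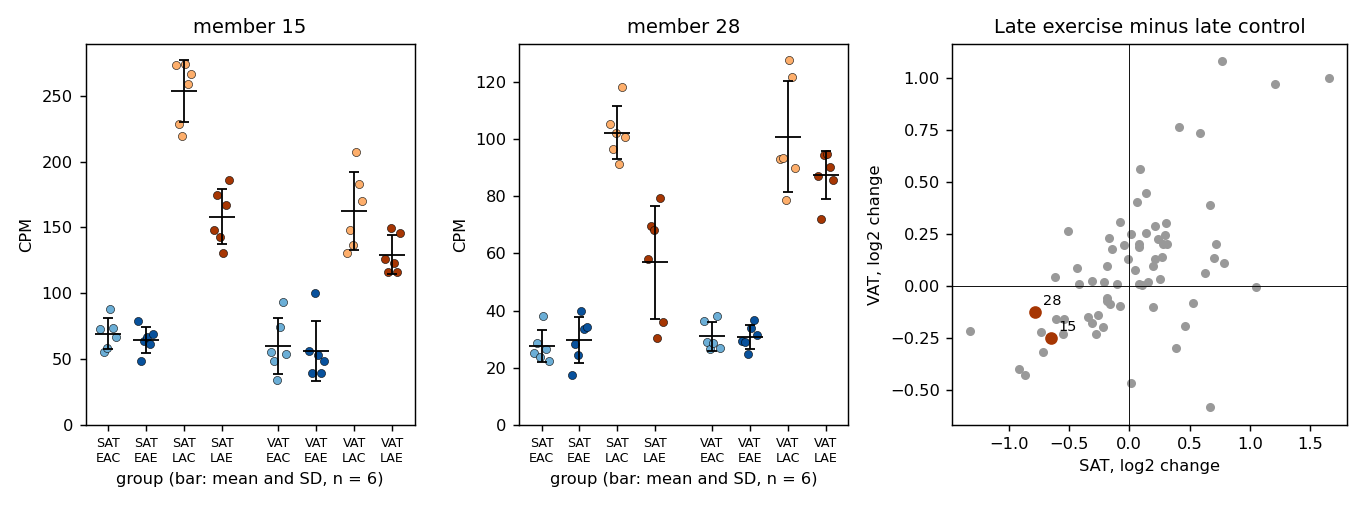
Left and centre, CPM of members 15 and 28 in the 48 libraries by depot and group, with each group's mean and SD (n = 6); right, log2 difference of late exercise minus late control of the 70 members in SAT (horizontal axis) and VAT (vertical axis). Late exercise SAT lies below late control SAT for both members, and the 2 lowest points of member 28 in late exercise SAT are replicates 4 and 6.

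The depots were compared within each activity, as the mean over both phases, in a fit of all 48 libraries and 14693 genes. Both depots came from the same rats, but this fit has no term for the rat. The SE and adjusted p of the depot differences therefore ignore that pairing, and counts with the rat as a block are given in the closing section. In sedentary rats 28 of 70 members differed, 19 with more in VAT and 9 with more in SAT, where 43.3% of all genes did so (21.6% toward VAT, 21.7% toward SAT). In exercised rats 33 members differed, 21 with more in VAT and 12 with more in SAT, where 50.3% of all genes did so (23% and 27.4%). The total share of members called, 40% and 47.1%, was thus near that of all genes. By direction, more members were called toward VAT than toward SAT in each activity, which was not so for all genes. That difference in direction was not tested. The call was made in both activities for 25 members, 19 of them higher in VAT and the other 6 in SAT, and 0 members were called in opposite directions. Of all genes tested 35% were called in both activities, 17.7% higher in VAT, 17.3% higher in SAT and 0% in opposite directions. The median VAT minus SAT difference of the members was 0.09 in sedentary and 0.03 in exercised rats, against -0.02 and -0.04 for all genes tested.

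Member 62 had the largest depot difference toward VAT, 2.64 ± 0.379 (SE) on the log2 scale in sedentary rats with an edgeR adjusted p of 3.846e-07. In early control rats it ran at 0.449 to 1.17 CPM in SAT and 3.52 to 6.85 CPM in VAT, and in late control rats at 0 to 3.03 and 5.44 to 12.2 CPM. The depots did not overlap in either phase of sedentary rats. Member 45 followed with 1.77 ± 0.254 (edgeR adjusted p 3.568e-07), then member 70 with 1.66 ± 0.378 (0.0004327) and member 44 with 1.45 ± 0.351 (0.0008592). Members 62, 45 and 44 are among the low ones, with means of 4.7, 2.57 and 1.32 CPM.

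Toward SAT, member 56 differed most, by -1.52 ± 0.315 (SE) with an edgeR adjusted p of 0.0001283. It was at 1.66 to 7.43 CPM in SAT and 0.906 to 1.96 CPM in VAT of early control rats, and at 7.14 to 22.2 and 1.93 to 4.39 CPM in late control rats. The depots were thus separate late and overlapped slightly early. Member 36 differed by -1.15 ± 0.256 (edgeR adjusted p 0.0003204), member 21 by -0.81 ± 0.163 (8.137e-05) and member 27 by -0.69 ± 0.274 (0.03736). Member 27 did not pass in exercised rats, with an edgeR adjusted p of 0.178, and it passed in 40 of 53 alternatives in sedentary ones.

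**Figure D5:**
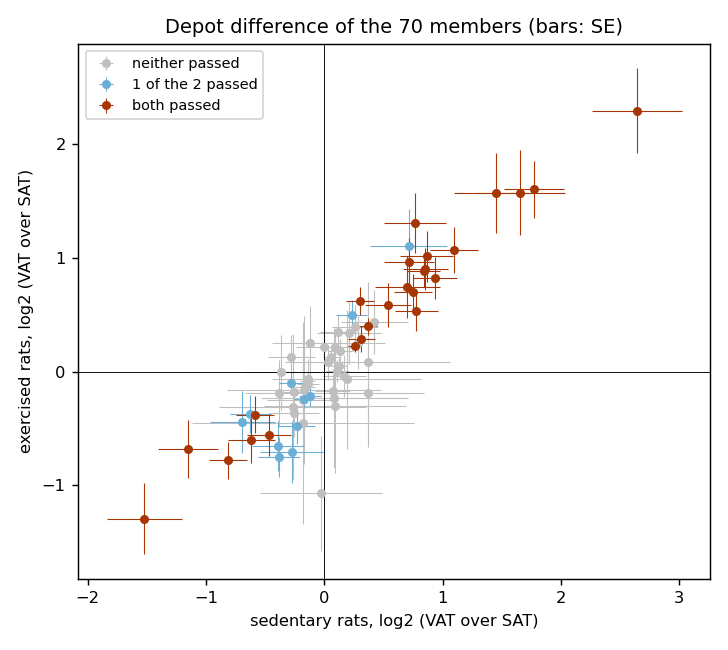
VAT minus SAT difference (log2, mean over both phases, bars show the SE) of each of the 70 members in sedentary rats (horizontal axis) and in exercised rats (vertical axis), coloured by whether the edgeR adjusted p passed in both, 1 or neither. The 19 members higher in VAT in both activities lie at the upper right and the 6 higher in SAT at the lower left.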

How the data were processed

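PolyA RNA of SAT and VAT from 24 rats was sequenced, per the labels' protocols. The authors deposited estimated counts per gene for 23481 Ensembl identifiers in 48 libraries. The submitters' processing notes name Salmon 1.4.0 and the build rn6. The annotation release is not given in the sources used here. The deposited estimated counts were already whole numbers, so rounding changed none. Columns were matched to samples by library name, and no coordinates were used. Estimated counts share reads between near-identical genes, so members with such copies would be uncertain.

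The members and lists were chosen with earlier results of these data known. Of 47357 genes in the table of rat names, 0 carry an Ensembl identifier and 0 identifiers matched, so gene and marker lists could not be applied and no sequence is shown. Values given by rule were those of the 12 leading members, the 5 of highest mean CPM, the 4 largest depot differences each way, the 5 lowest p in an exercise comparison with a call, the 2 lowest in late VAT, the 5 highest depot-to-depot correlations and the genes at the threshold. Members 47, 52, 59, 51, 57 and 65, next in that order, were added after their values were seen.

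CPM used the column totals; phase differences used log2(CPM + 0.5). Exercise and depot were tested with edgeR 4.0.16 (R version 4.3.3; TMM, filterByExpr, quasi-likelihood F test, adjusted p under 0.05) on the 24 libraries of a depot or on all 48. The biological coefficient of variation was 36.0% in SAT, 21.1% in VAT and 30.6% over both. Counts simulated for a single contrast of each fit were used to check the code. They held no libraries that stand apart and no pairing of depots by rat, so they do not bear on the calls given here. SE is the log2 change over the square root of F. Alternatives were DESeq2 1.42.0 (size factors and Wald test), no filter beyond 1 count, a replicate block, only the groups compared, leaving out each library, and leaving out the 4 libraries that stand apart.

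Replicates are separate rats, per the labels. Replicate numbers pair the depots, since both came from the same rats: by genes picked from the remaining rats, the SAT library of 24 of 24 rats was matched to its own VAT library. Those genes had a depot-to-depot correlation over 0.8 under the same numbering, which 33 genes had over all 24 rats. Over all genes considered, a rat's deviations in SAT and VAT correlated at -0.09 to 0.24, and at over 0.1 in 16 rats. Within a depot the numbers name different rats.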

Additional observations from a re-analysis of the deposited data

Results flagged for a closer look

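In 5 of 72 checks within groups by Dixon's ratio of gap to range, 1 library lay far from the other 5. For independent, normally distributed values the cutoff gives about 1 in 20 such results by chance. These checks share libraries, and members 1, 3 and 5 have rats in separate clusters, so that rate need not hold here. For member 2, early exercise replicate 4 was the highest of its VAT group at 12.28 CPM. Member 3 was highest in late exercise SAT replicate 4, one of the libraries that stand apart, at 82.29 CPM. Member 4 was highest in late exercise VAT replicate 6, at 45.43 CPM. Member 15 was highest in early exercise VAT replicate 3, which also stands apart, at 100.4 CPM, against 38.9 to 56.3 CPM in the other 5. Member 63 was highest in early control SAT replicate 2, at 77.61 CPM. What set these libraries apart was not tested.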

How the results depend on the processing

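In late SAT the count of members that passed for exercise was 2, and it was 6 by the DESeq2 Wald test (18.9% of all genes), 0 with only the 2 groups compared (0%), and 1 to 8 when 1 library was left out. It was 8 without late exercise replicate 5 (21.2% of all genes) and 5 without late exercise replicate 2 (20%). Leaving out early exercise replicate 1 (14.1%) or late exercise replicate 3 (16%) gave 4. Leaving out late control replicate 1, 2, 3 or 5 gave 1 (2.44%, 2.43%, 2.27% and 10.8%). Late exercise replicate 4 or 6 left out also gave 1 (1.78% and 2.63%). Without replicates 4 and 6 of late exercise it was 2 (2.14% of all genes), with member 28 lost and member 31 higher at 0.32 (edgeR adjusted p 0.0394). With the replicate block, whose numbers name different rats within a depot, it was 1 (2.68% of all genes): member 15 passed (edgeR adjusted p 0.0336) and member 28 did not (0.0549). Member 15 passed in 29 of 30 alternatives and member 28 in 21. For the mean of both phases in SAT the DESeq2 Wald test called 1 member, member 15. In late VAT it called 1, member 45, and edgeR called 0 to 1 over left-out libraries, with 1 without late exercise replicate 6 (0.257% of all genes).

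With the rat as a block, 29 and 35 members differed between depots in sedentary and exercised rats, against 28 and 33. Leaving out 1 library gave 25 to 32 and 29 to 35, and leaving out the 4 that stand apart gave 34 and 33. The shares of all genes under these settings are not given here, so nothing is read from the changes in these counts.

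A difference of at least 1 on the log2 scale left 23 genes. Without the 4 libraries that stand apart the rule gave 106 genes, 65 of them members, and leaving out each library in turn gave 59 (without late exercise SAT replicate 5) to 83 (without late exercise SAT replicate 4). By group medians, chosen after seeing the data, it gave 79, with 59 members among them. The median depot-to-depot correlation was 0.3769 over the 20 rats without a library that stands apart, and 0.257 to 0.354 over left-out rats.

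None of the single-member differences followed over the alternatives changed sign, nor did the median depot-to-depot correlation. Counts of members have no sign that could reverse. In 19 settings a count or that correlation moved from its main value by more than the set limit. Counting error limits the low members, as 1 count in the smallest library is 0.076 CPM. The cause of the changes with setting was not tested.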
